A study of Mus musculus with 34 samples.

Results

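The acute phase genes described here are 9 genes whose products are made in large amounts during inflammation: the serum amyloid A genes Saa1, Saa2 and Saa3, and Lcn2, Serpina3n, Hp, Hpx, Lbp and Steap4. They were found through the RefSeq accession that the scanner files give for each probe, which assigned 11 of 41174 probes to them (Saa1 and Steap4 have 2 probes each). All 9 passed the filter on dim probes, and they are 9 of the 19795 genes tested. The list names genes known for the response to inhaled particles. No measured value enters its rule, though earlier results of these data were known when it was chosen.

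The arrays measured RNA from a random section of the heart, cut so that both ventricles were in it, of female C57BL/6 mice bought at 5 to 6 weeks of age. Each mouse received 1 instillation into the trachea of 40 µl, followed by 150 µl of air. Controls received the vehicle, saline with acellular lavage fluid from the lungs of C57BL/6 mice, and exposed mice received the same vehicle with 162 µg of carbon black nanoparticles of the type Printex 90. Hearts were taken on day 1, day 3 or day 28, with 6 control mice on each day and 6, 5 and 5 exposed mice, and each mouse has 1 array. Heart RNA was labelled with Cy5 and hybridised against a commercial pool of mouse RNA labelled with Cy3, so a level below is the log2 ratio of heart over that pool, and a difference is a difference of such log2 ratios. Signal over background is the spot's heart signal divided by the signal just outside the spot, and "well above background" is the scanner software's own mark for a spot.

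The acute phase response is the change in plasma proteins that follows infection, injury or particle inhalation. Interleukin-6, interleukin-1 and related cytokines act through STAT3, C/EBP and NF-kappa-B factors, mainly on the liver, and raise serum amyloid A, haptoglobin, hemopexin and lipopolysaccharide-binding protein in blood. Saa3 and Lcn2 are also made outside the liver, in lung, macrophages and fat, and haptoglobin is made by fat cells. Serum amyloid A is best known in cardiovascular research as a lipoprotein-bound protein that rises in blood after particles reach the lung.

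Sequence is shown for the serum amyloid A genes because Saa1 and Saa2 moved together in the hearts and Saa3 followed them less closely (r over the 34 arrays, of deviations from group means, 0.891 for Saa1 with Saa2, 0.495 for Saa1 with Saa3 and 0.262 for Saa2 with Saa3). RefSeq (assembly GRCm38.p6) places the genes within a short stretch of chromosome 7: Saa3 at chr7:46711998-46719615, Saa1 at chr7:46740497-46743181 and Saa2 at chr7:46751833-46754313. Saa1 and Saa2 are read away from each other, from start sites that lie 8853 bases apart. The 250 bases before 1 listed start site of each gene are printed 5′ to 3′ on the gene's own strand: chr7:46742981-46743230 (minus strand) for Saa1, chr7:46751583-46751832 (plus strand) for Saa2 and chr7:46715677-46715926 (minus strand) for Saa3. The Saa1 window lies in part inside the annotated span of the gene, which reaches further upstream through another transcript. The Saa3 window lies wholly inside the annotated span of its gene, so it is sequence before 1 listed start site and not before the whole gene. Capitals mark matches, on either strand, to the C/EBP motif TTGCNNAA.
Saa1: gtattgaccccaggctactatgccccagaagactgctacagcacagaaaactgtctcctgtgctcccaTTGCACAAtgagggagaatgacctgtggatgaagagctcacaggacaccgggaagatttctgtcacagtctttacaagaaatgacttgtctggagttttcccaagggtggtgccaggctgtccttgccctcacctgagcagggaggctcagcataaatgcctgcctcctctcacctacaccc
Saa2: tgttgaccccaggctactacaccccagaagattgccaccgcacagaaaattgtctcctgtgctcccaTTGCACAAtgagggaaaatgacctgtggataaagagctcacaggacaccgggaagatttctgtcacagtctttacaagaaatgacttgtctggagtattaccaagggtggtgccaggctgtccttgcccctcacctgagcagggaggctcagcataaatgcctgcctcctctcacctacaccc
Saa3: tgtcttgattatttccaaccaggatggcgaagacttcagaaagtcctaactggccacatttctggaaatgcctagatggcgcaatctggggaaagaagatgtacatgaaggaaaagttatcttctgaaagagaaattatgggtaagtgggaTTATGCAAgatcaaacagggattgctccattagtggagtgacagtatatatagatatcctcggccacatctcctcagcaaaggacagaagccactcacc
The Saa1 and Saa2 windows were identical at 238 of 251 aligned positions (94.8%), and both hold TTGCACAA, 182 and 183 bases before the start. The Saa3 window matched that of Saa1 at 52.2% of aligned positions and has its C/EBP match, TTATGCAA, 99 bases before the start. A window was given for 7 of the 9 genes, and Hp and Lbp have none in the table. The C/EBP motif was found in 6 of these 7 windows and in 9.56% of all 32851 promoter windows of the same length. A loose NF-kappa-B motif (3 G, any 5 bases, then 2 C) was found in 5 of 7 and in 45.8% of all windows, and the STAT motif TTCNNNGAA in 1 of 7 (Steap4) and in 7.02%. In the printed windows no match to 1 motif overlapped a match to another, and a match is only a run of letters.

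The tissue was checked against marker genes. All 10 markers of ventricular heart muscle cells were well above background on all 34 arrays. The arrays had 42.8% to 66.6% of their spots well above background, and no heart spot was saturated. The array that stood furthest apart was replicate 6 of carbon black day 1, with a median correlation of 0.768 to its group where the median array had 0.922. Replicate 4 of control day 3 (0.839) and replicate 2 of control day 1 (0.85) followed. Sections also differed in what else they held: markers of fat cells, liver and atrial muscle differed between sections of 1 group, as given beside the results below. In a bulk sample, fewer cells of a type and less RNA per cell cannot be told apart.

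Carbon black changed none of the 9 acute phase genes past the threshold at any day. In limma's moderated test, with Benjamini-Hochberg adjustment over all 19795 genes and a threshold of 0.05, 0 of 9 were called on day 1, where 0% of all genes were called, 0 of 9 on day 3 (0%) and 0 of 9 on day 28 (0%). Over all days, as the mean of the 3 day effects, 0 of 9 were called, where 1.96% of all genes (387) were called. Without 1 array at a time the 387 ranged from 0 (without replicate 3 or 5 of carbon black day 3, replicate 3 of carbon black day 28 or replicate 4 of control day 28) to 946 (without replicate 3 of control day 3). At an unadjusted p under 0.05, 1 of 9 (Lcn2) passed on day 1, against 7.2% of all genes. None of the 9 did so on day 3, against 11.1% of all genes, or on day 28, against 2.99%. Hpx and Lbp did so over all days, against 18.3% of all genes. Lcn2 passed the filter on dim probes only through carbon black day 1, where it was high, so its p on day 1 supports nothing. No member had groups that did not overlap on any day, as against 0.369%, 0.896% and 0.38% of all genes on days 1, 3 and 28. The median difference of the 9 genes was -0.21 on day 1, -0.29 on day 3 and -0.12 on day 28, with medians over all genes of -0.0043, 0.016 and 0.0067.

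**Figure D1:**
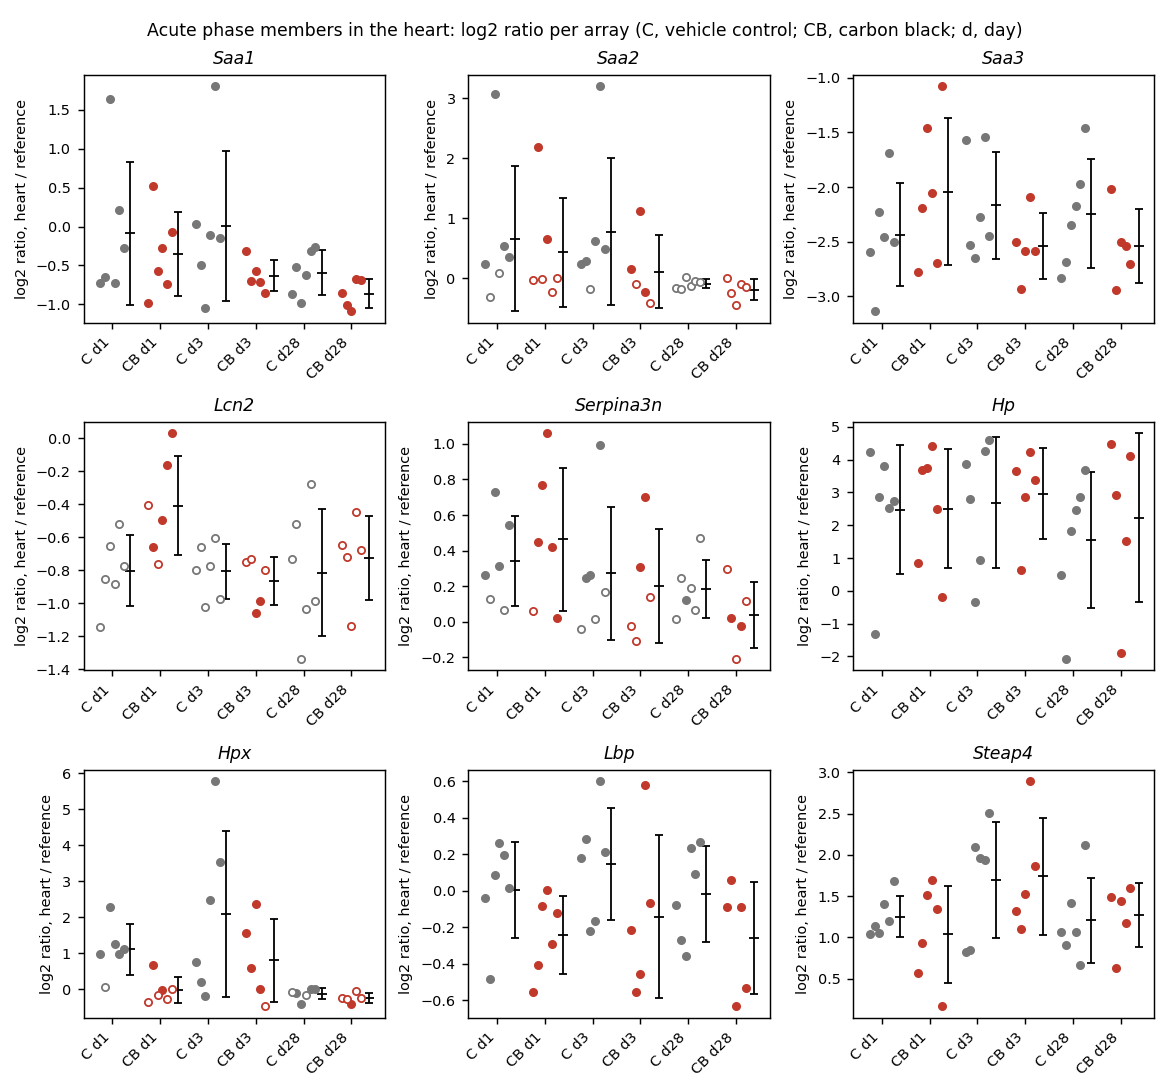
Log2 ratio of heart over reference RNA for each of the 9 genes (y axis, scale differs by panel) in the 6 groups (x axis), with 1 point per mouse, filled where the spot was well above background. Bars beside the points are group mean and SD; Hp ran from -2.08 to 4.59, and Saa2 passed 3 on 1 control array each of day 1 and day 3.

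Saa1 and Saa2 encode the serum amyloid A proteins that the liver releases into blood. Saa1 was well above background on 34 of 34 arrays by the probe used in the fit (A_52_P318673) and on 13 by its second probe (A_51_P361650). Saa2 (A_51_P166886) was well above background on 14 of 34 arrays, 9 of 18 controls and 5 of 16 exposed, and on none at day 28 in either arm. Its level on day 1 ran from -0.31 to 3.07, with a median of 0.30, in controls and from -0.23 to 2.19, with a median of -0.00039, in exposed mice. On day 3 the controls ran from -0.18 to 3.21, with a median of 0.39, and the 5 exposed mice stood at 0.16, -0.089, 1.13, -0.23 and -0.42. On each of these days 1 control mouse lay above every exposed mouse and the other controls lay within or near the exposed range. At day 28 all 11 mice lay between -0.44 and 0.021, with the spot at 1.03 to 1.31 times its local background.

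The high Saa2 values came from single mice. Replicate 5 of control day 3 (3.21), replicate 3 of control day 1 (3.07) and replicate 2 of carbon black day 1 (2.19) were the highest for Saa2. The same 3 mice were the highest for Saa1, at 1.81, 1.64 and 0.52. In the brightest of them, replicate 3 of control day 1, the Saa2 spot read 11.1 times its local background. The reference channel of that spot read 6.57 times its background there and 1.52 to 5.83 times on the other 33 arrays, although the reference RNA was the same. The ratio therefore rises by less than the heart signal did on that array.

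The differences between exposed and control mice were small beside this spread. Saa2 differed by -0.23 ± 0.47 (SE) on day 1, with a 95% confidence interval of -1.19 to 0.73 and an adjusted p of 0.965 in limma. On day 3 it differed by -0.67 ± 0.49 (95% interval -1.68 to 0.34). Saa1 differed by -0.27 ± 0.35 on day 1 (-0.97 to 0.44, limma adjusted p = 0.929) and by -0.64 ± 0.36 on day 3 (-1.38 to 0.10, limma adjusted p = 0.518). Without replicate 5 of control day 3 the day 3 differences were -0.28 for Saa1 and -0.18 for Saa2. Without replicate 3 of control day 1 the day 1 differences turned to 0.079 and 0.25. Over all days 14 of 16 exposed mice lay at or below their day's control mean for Saa1 (-0.39 ± 0.21, limma adjusted p = 0.319). Single high mice raised that mean: it was -0.088 on day 1 (control median -0.46) and 0.0083 on day 3 (control median -0.12). The share of all genes for this count was not computed.

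The levels of Saa1 and Saa2 followed each other from mouse to mouse. Over the 34 arrays their deviations from the group means correlated at r = 0.891, and the second Saa1 probe followed Saa2 (r = 0.940) as closely as it followed the first (r = 0.904). The genes are similar enough in sequence that a probe may also bind the transcript of the other copy, so the levels of Saa1 and Saa2 are uncertain as separate values. The other named genes most like Saa1 over the 34 arrays were Tm4sf4 (r = 0.811), F7, Cyp3a13 and Hrg. For Saa2 they were Itih3 (r = 0.804), Hrg, Gulo and Masp1. F7 (a clotting factor), Hrg and Itih3 are plasma protein genes of the liver, and Gulo is a liver enzyme of vitamin C synthesis.

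Saa3, the serum amyloid A gene that cells outside the liver also use, behaved otherwise. Its probe was well above background on all 34 arrays, and its levels ran from -3.14 to -1.07, below the reference RNA throughout. On day 1 controls ran from -3.14 to -1.69 (median -2.48) and exposed mice from -2.78 to -1.07 (median -2.12). Replicate 6 of carbon black day 1, the array that stood apart, was the highest of all, and 2 of 6 exposed mice lay above every control. The difference was 0.39 ± 0.27 on day 1 (95% interval -0.16 to 0.94, limma adjusted p = 0.807) and 0.20 without that array. On day 3 it was -0.37 ± 0.28 (limma adjusted p = 0.637) and on day 28 -0.30 ± 0.28 (limma adjusted p = 1). The difference of the exposure effect between day 3 and day 1 was -0.76 ± 0.39 (unadjusted p = 0.06, adjusted p = 0.999, limma). Named genes most like Saa3 were Gpr137b (r = 0.836), Ifi30, Tyms, Ada and Jaml.

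Lcn2 encodes lipocalin-2, a protein that binds iron-carrying siderophores of bacteria and is released by neutrophils and stressed epithelium. Its spot (A_51_P510156) was well above background on 6 of 34 arrays, the fewest of the 9 genes. It was well above background on 0 of 18 control arrays, on 4 of 6 at carbon black day 1, on 2 of 5 at carbon black day 3 and on 0 of 5 at carbon black day 28. The gene passed the filter only through carbon black day 1, the group in which it was high, so the test values of Lcn2 are given as a description and support nothing. On day 1 its level ran from -1.14 to -0.52 (median -0.81) in controls and from -0.76 to 0.030 (median -0.45) in exposed mice. The signal over background ran from 0.941 to 1.25 in these controls and from 1.07 to 1.74 in the exposed mice. All 6 exposed mice lay above the control mean, and 4 of 6 lay above every control, so the groups overlapped in the other 2 only.

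The Lcn2 difference on day 1 was 0.39 ± 0.15, with a 95% interval of 0.089 to 0.70. Its unadjusted p in limma was 0.0129 and its adjusted p 0.598, and with no filter on dim probes they were 0.0118 and 0.719. An exact two-sided permutation test over the 12 mice gave p = 0.0238, where the smallest p possible is 0.00216. This p too is only a description, because the gene entered through the exposed group of that day. Since no control array measured the gene, the fold between the group means of day 1 is a bound, 1.27-fold or more. This bound allows for the dim control spots only, and not for the sampling of mice. It is no lower limit of the difference, whose 95% interval starts at 0.089. The exposed mean also takes in arrays not well above background (4 of 6 were). The bound compares the exposed mean with the higher of each control array's own value and its lowest signal well above background. Without replicate 6 of carbon black day 1, which held the highest value, the difference was 0.31. Without the 5 arrays low in atrial transcripts, of which that is 1, it was 0.30 with an unadjusted limma p of 0.0766. With the scanner's processed signals, which subtract background, it was 1.61, a size that rests on control values not well above background on any of 6 arrays.

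**Figure D2:**
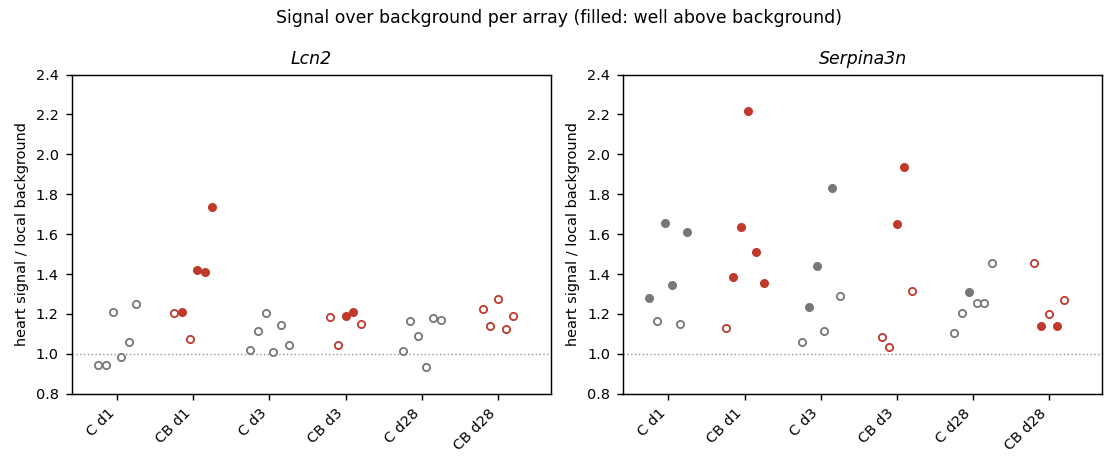
Heart signal divided by local background (y axis) for Lcn2 and Serpina3n in the 6 groups (x axis), with 1 point per mouse, filled where the spot was well above background. Lcn2 reached 1.74 in 1 exposed mouse of day 1 and is filled on 0 of 18 control arrays; the dotted line marks a signal equal to background.

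On later days Lcn2 gave no such difference. At day 3 the exposed mice stood at -0.75, -0.73, -1.06, -0.98 and -0.80, within or below the control range of -1.02 to -0.60 (difference -0.058 ± 0.16, limma adjusted p = 0.914). At day 28 they stood at -0.65, -0.72, -1.14, -0.44 and -0.68, inside the control range of -1.34 to -0.27. The exposure effect on day 3 minus that on day 1 was -0.45 ± 0.22 (unadjusted p = 0.0448, adjusted p = 0.999, limma), and 0 of 9 members were called in that comparison (0% of all genes). Within exposed mice, day 3 minus day 1 was -0.46 ± 0.16 (unadjusted p = 0.00659, adjusted p = 0.689, limma), with 0 of 9 members called (0% of all genes).

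Markers of some other cells went inversely with Lcn2 over the 34 arrays, of which only 6 had its spot well above background. The reference channel of that spot was well above background on all 34. The relations of Lcn2 given here are therefore a description and support nothing. Over the 34 arrays the Lcn2 level correlated with the mean level of 8 endothelial markers at r = -0.641 (rho = -0.554, permutation p adjusted over 99 relations 0.0016 and 0.01). Its r was -0.623 with 9 macrophage markers (rho = -0.413, permutation adjusted p 0.0016 and 0.074) and -0.616 with 10 fibroblast markers (rho = -0.493, permutation adjusted p 0.0017 and 0.027). Leaving out the 2 arrays farthest from the median of the score, which include replicate 6 of carbon black day 1, changed these to -0.501, -0.329 and -0.369. The fibroblast score ran from -0.72 to 0.46 in controls and from -2.03 to 0.010 in exposed mice of day 1. All 10 of its markers had differences below 0 on day 1, none called (0% of all genes), with a median of -0.86. The part of these cells in the Lcn2 result was not tested. Of 12 neutrophil markers 6 were in the fit, 0 were called on day 1 (0% of all genes) and Mmp8 was well above background on no array. The neutrophil score, the mean of the 6, ran from -0.16 to 0.12 in controls and from -0.16 to 0.77 in exposed mice of day 1, and its r with Lcn2 was -0.0018. Named genes most like Lcn2 were Zfp345 (r = 0.793), Cbx2, Rnf183, Wdr54 and Ly75.

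Serpina3n, a secreted inhibitor of serine proteases, was well above background on 17 of 34 arrays, 8 of 18 controls and 9 of 16 exposed. Its level on day 1 ran from 0.066 to 0.73 in controls and from 0.021 to 1.06 in exposed mice, and the exposed range spanned the control range. The difference was 0.12 ± 0.17 on day 1, -0.070 ± 0.18 on day 3 and -0.14 ± 0.18 on day 28 (limma adjusted p 0.939, 0.909 and 1). Among exposed mice, day 28 minus day 1 was -0.42 ± 0.18 (unadjusted p = 0.0235, adjusted p = 0.997, limma), with 0 of 9 members called (0% of all genes). Named genes most like Serpina3n were Ugt1a6b (r = 0.834), Selenop, Opn3, Man2a1 and Gsta3.

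Hp encodes haptoglobin, the plasma protein that binds free haemoglobin. It was the most variable member: its SD within groups was 2.0, larger than that of 99.9% of all genes, for which the median was 0.261. Control day 1 ran from -1.32 to 4.24 (median 2.80) and carbon black day 1 from -0.18 to 4.42 (median 3.10). Control day 3 ran from -0.34 to 4.59, and the exposed mice of day 3 stood at 3.67, 0.64, 2.85, 4.24 and 3.39. Control day 28 ran from -2.08 to 3.70, and the exposed mice of day 28 stood at 4.47, 2.93, -1.89, 1.5 and 4.11. Over the 34 arrays the signal ran from 1.36 to 408 times background, and the groups overlapped on every day. The exposure difference was 0.026 ± 1.09 on day 1, 0.27 ± 1.15 on day 3 and 0.69 ± 1.15 on day 28 (limma adjusted p 0.998, 0.952 and 1), with a 95% interval on day 1 of -2.20 to 2.26. This interval is wide, so these samples do not fix the size or direction of an Hp difference on day 1.

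The Hp level followed fat-cell transcripts. Over the 34 arrays it correlated with the mean of 9 adipocyte markers at r = 0.918 and rho = 0.915 (permutation p adjusted over 99 relations 0.00049 for both). The r was 0.957 without the 2 farthest arrays, 0.937 within groups and 0.939 within scan days. At a score below -2.5, 5 arrays lay apart, and over the other 29 r was 0.905 and rho 0.886 (permutation p adjusted over 7 relations 3.5e-05 and 7e-05). The adipocyte score ran from -3.15 to 1.17 in control day 1 and from -3.46 to 0.84 in carbon black day 1. On day 1, 3 of the 9 markers had differences above 0 and 6 below, with a median of -0.22. All 9 had differences above 0 on days 3 and 28, with medians of 0.79 and 0.52. None was called on any of these days (0% of all genes). The named genes most like Hp were Plin1 (r = 0.955) and Cidec (r = 0.947), which coat the fat droplet, then Rbp4, Car3 and Scd1. Plin1 and Cidec belong to the marker list.

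**Figure D3:**
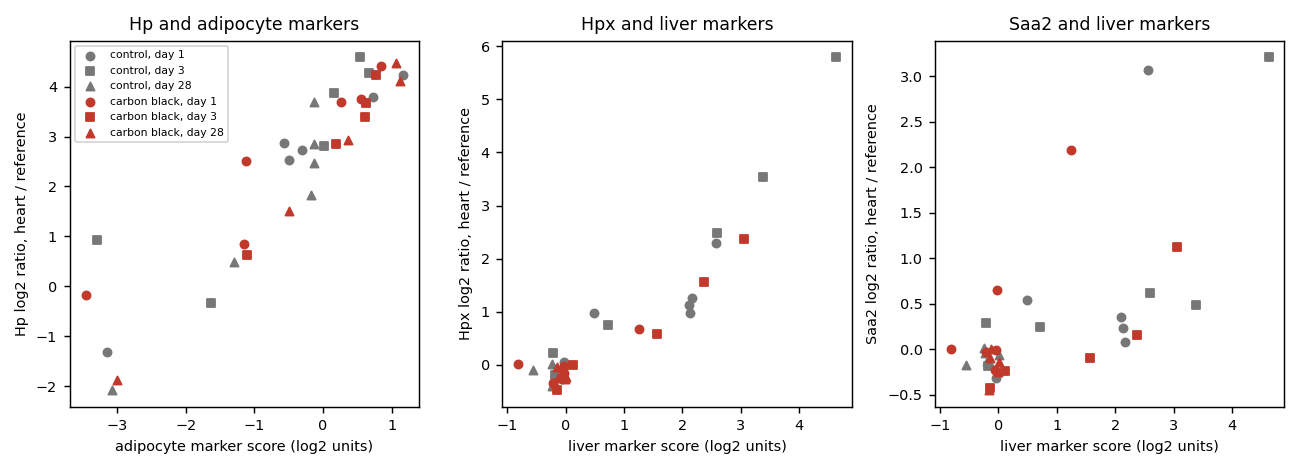
Level of Hp, Hpx and Saa2 (y axes, log2 ratio of heart over reference) against the mean log2 level of adipocyte markers (left) or liver markers (middle and right, x axes), with 1 point per mouse, coloured by treatment and shaped by day. Hp rises along the whole adipocyte score (r = 0.918), Hpx rises with the liver score among the 13 arrays above 0.4, and Saa2 is above 2 on 3 arrays and between -0.44 and 1.13 on the others.

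Hpx encodes hemopexin, which binds free heme and is made by the liver. It was well above background on 22 of 34 arrays, 15 of 18 controls and 7 of 16 exposed. On day 1 controls ran from 0.051 to 2.29 (median 1.05) and exposed mice from -0.35 to 0.67 (median -0.094). Of the controls, 5 of 6 lay above every exposed mouse, and 5 of 6 exposed mice lay below every control. On day 3 controls ran from -0.20 to 5.79 (median 1.61), and the exposed mice stood at 1.56, 0.58, 2.36, -3.7e-05 and -0.48, so the groups overlapped although 3 controls lay above all exposed mice. At day 28 the mice of both arms lay between -0.41 and 0.016.

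The Hpx difference was -1.13 ± 0.62 on day 1 (unadjusted p = 0.0755, adjusted p = 0.724, limma), and an exact two-sided permutation test over the 12 mice gave p = 0.00433. On day 3 it was -1.29 ± 0.65 (limma adjusted p = 0.459) and on day 28 -0.12 ± 0.65 (limma adjusted p = 1). Over all days it was -0.85 ± 0.37 (unadjusted p = 0.0278, adjusted p = 0.205, limma), with 14 of 16 exposed mice at or below their day's control mean. The share of all genes for this count was not computed, and the control mean of day 3 was 2.09 with a median of 1.61. Without replicate 5 of control day 3 the day 3 value was -0.55. Without replicates 4, 5 and 6 of control day 3, which are rich in liver transcripts, it was 0.55 on day 3 and -0.23 over all days (adjusted p = 0.673), while the exposed mice of day 3 rich in them stayed in. With the slide as a fixed block the day 1 value was -0.56 and the value over all days -0.27. Among controls, day 28 minus day 3 was -2.21 ± 0.62 (unadjusted p = 0.00112, adjusted p = 0.999, limma), with 0 of 9 members called (0% of all genes).

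Liver transcripts moved with Hpx, array by array. The liver score is the mean of 6 of 10 listed markers, none of them well above background on all 34 arrays. It ran from -0.033 to 2.57 in control day 1 and from -0.81 to 1.25 in carbon black day 1. It ran from -0.21 to 4.63 in control day 3 and from -0.15 to 3.06 in carbon black day 3, and stayed between -0.56 and 0.0080 at day 28. On day 1, 5 of the 6 markers had differences below 0, with a median of -1.76, and none was called (0% of all genes). The arrays fell apart on this score. Among the 13 arrays above 0.4, Hpx followed it at r = 0.898 and rho = 0.934 (permutation p adjusted over 7 relations 3.5e-05 and 7e-05). Among the 21 arrays below, Hpx lay between -0.48 and 0.21 and r was -0.085. The genes most like Hpx were the liver genes Agxt (r = 0.988), Serpinf2, Cyp2c40, Cyp3a41a and Proc. On the brightest array, replicate 5 of control day 3, the Hpx spot read 103 times background in the heart channel and 17.7 times in the reference channel. The reference channel read 2.0 to 4.86 times background on the other 33 arrays.

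Saa1 and Saa2 followed the liver score less closely than Hpx in these values, a difference that was not tested. Among the 13 arrays above 0.4, r was 0.460 for Saa2 (rho = 0.390, permutation p adjusted over 7 relations 0.24 and 0.33) and 0.349 for Saa1. Over all 34 arrays, which pools arrays that lie apart on the score, r was 0.680 for Saa2 (rho = 0.566, permutation p adjusted over 99 relations 0.0016 and 0.0097) and 0.688 within groups. For Saa1 it was 0.592 (rho = 0.439, permutation adjusted p 0.0067 and 0.054), and 0.417 without the 2 farthest arrays. Replicate 6 of control day 3, with a liver score of 3.39, had a Saa2 level of 0.49, and replicate 4 of that group, with 2.60, had 0.62. Replicate 2 of carbon black day 1 had a score of 1.25 and a Saa2 level of 2.19.

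Lbp encodes the protein that carries bacterial lipopolysaccharide to CD14 and the Toll-like receptor 4. It was well above background on all 34 arrays, with an SD within groups of 0.302, larger than that of 61.1% of all genes. On day 1 controls ran from -0.48 to 0.26 (median 0.050) and exposed mice from -0.56 to 0.0024 (median -0.21). On day 3 controls ran from -0.22 to 0.60, and the exposed mice stood at -0.21, -0.55, -0.46, 0.58 and -0.070. On day 28 controls ran from -0.36 to 0.27, and the exposed mice stood at -0.090, 0.061, -0.63, -0.090 and -0.53. All 6 exposed mice of day 1 and 14 of 16 over all days lay at or below their day's control mean, within overlapping groups. The share of all genes for these counts was not computed.

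The Lbp difference was of like size on each day, at -0.25 ± 0.17, -0.29 ± 0.18 and -0.24 ± 0.18 on days 1, 3 and 28 (limma adjusted p 0.807, 0.556 and 1). Over all days it was -0.26 ± 0.10, with a 95% interval of -0.47 to -0.051 (unadjusted p = 0.0164, adjusted p = 0.158, limma). With each array centred on its median in place of loess, Lbp was at 0.014 where the median of all genes was at 0.19. Lbp also went, inversely, with heart muscle markers. Its r with the mean of 10 such markers was -0.570 (rho = -0.531, permutation p adjusted over 99 relations 0.0042 and 0.014) and -0.623 without the 2 farthest arrays. The differences of all 10 markers lay above 0 over all days, with a median of 0.33, and 1 of them, Tnni3 (cardiac troponin I), was called (0.82 ± 0.22, limma adjusted p = 0.047), where 1.96% of all genes were. The call of Tnni3 was lost with slide, scan day or array position as a fixed block (limma adjusted p 0.136, 0.0758 and 0.763), and it held in 9 of 34 fits without 1 array. It was lost too with the scanner's processed signals (limma adjusted p 0.227), no filter (0.0689) or the mean over probes (0.0714). Without the 3 liver-rich arrays it was also lost (0.175). The call held without background correction, with median centring, the authors' deposited values, the stricter filter or slide as a random block, and without the 5 arrays low in atrial transcripts. The r of Saa3 with the same score was -0.631 (rho = -0.555, permutation adjusted p 0.0016 and 0.01). Saa1 (r = -0.567, rho = -0.672, permutation adjusted p 0.0067 and 0.00066) and Hpx (r = -0.520, rho = -0.552, permutation adjusted p 0.016 and 0.01) went inversely with it too. The part of heart muscle in these results was not tested. Named genes most like Lbp were Ephx1 (r = 0.869), Foxp1, Spsb2, Arhgdia and Sorbs3.

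Steap4, a metalloreductase of fat and other tissues, was well above background on all 34 arrays by the probe in the fit (A_51_P143893) and on 24 by the other (A_52_P182919), and the probes correlated at r = 0.814. The reference RNA was well above background on only 3 of 34 arrays, so its ratio rests on a dim denominator. On day 1 controls ran from 1.04 to 1.68 and exposed mice from 0.16 to 1.69. On day 3 controls ran from 0.83 to 2.51, and the exposed mice stood at 1.32, 1.1, 1.52, 2.90 and 1.87. The exposed range held or overlapped the control range on each day. The differences were -0.21 ± 0.30, 0.044 ± 0.32 and 0.064 ± 0.32 on days 1, 3 and 28 (limma adjusted p 0.941, 0.973 and 1). Named genes most like Steap4 were Mettl7a1 (r = 0.811), Cd38, Rnf144a, Abhd6 and Ebf1.

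**Figure D4:**
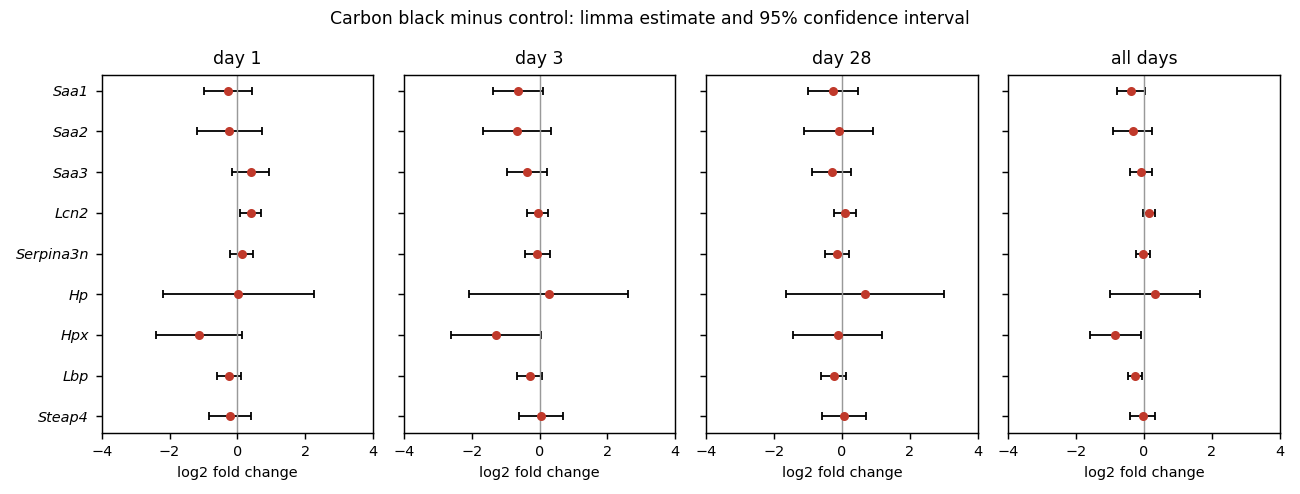
Difference of mean log2 ratio, carbon black minus control (x axis), for the 9 genes (y axis) on each day and over all days, with points for the limma estimate and bars for its 95% confidence interval. The interval lies above 0 for Lcn2 on day 1 (0.089 to 0.70) and below 0 for Hpx and Lbp over all days, and none of the 3 passed adjustment over all genes. Lcn2 passed the filter only through carbon black day 1, the group in which it was high, so its interval is a description and supports nothing.

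The order of the 6 group means differed between members. Control day 3 was the highest group for Saa1 (0.0083), Saa2 (0.78), Hpx (2.09) and Lbp (0.15), and carbon black day 1 for Saa3 (-2.04), Lcn2 (-0.41) and Serpina3n (0.46). Carbon black day 3 was the highest for Hp (2.96) and Steap4 (1.74). Carbon black day 28 was the lowest group for Saa1, Saa2, Saa3, Serpina3n, Hpx and Lbp. Neighbours in these orders differed by more than the larger of their SDs in 2 places only: between the highest group and the next for Lcn2 (1.05 SD), and between carbon black day 3 and carbon black day 28 for Saa1 (1.14 SD). In each of the comparisons between days not yet given, and in the other 2 comparisons of exposure effects between days, 0 of 9 members and 0% of all genes were called in limma.

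At an unadjusted p under 0.05 in limma, the comparisons between days gave few members. Lcn2 is counted among them, but it passed the filter only through carbon black day 1, so its entries support nothing. The difference of exposure effects gave 1 of 9 members (Lcn2) for day 3 against day 1, where 2.19% of all genes passed. It gave 0 of 9 for day 28 against day 1 (1.39% of all genes) and 0 of 9 for day 28 against day 3 (1.21% of all genes). Among controls 0 of 9 passed for day 3 against day 1 (2.05% of all genes) and for day 28 against day 1 (1.18% of all genes), and 1 of 9 (Hpx) for day 28 against day 3 (4.44% of all genes). Among exposed mice 2 of 9 passed for day 3 against day 1, where 5.44% of all genes did: Lcn2 and Steap4, the latter at 0.70 ± 0.32 (unadjusted p = 0.0342, adjusted p = 0.903). Serpina3n alone passed for day 28 against day 1 (1 of 9, 4.29% of all genes), and 0 of 9 for day 28 against day 3 (1.37% of all genes).

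Other acute phase genes gave no call. Of 23 such genes in the fit, from 30 listed, 0 were called in limma on any day, where 0% of all genes were called. Over all days 0 were called too, where 1.96% of all genes were. Over all days 10 of the 23 lay above 0 and 13 below, with a median of -0.14. Those of smallest unadjusted p over all days were Lrg1, a leucine-rich plasma glycoprotein (0.62 ± 0.18, adjusted p = 0.0625, limma), and Mt1, a metallothionein (0.25 ± 0.10, adjusted p = 0.16, limma). The fibrinogen chain Fgb (-0.98 ± 0.48, adjusted p = 0.272, limma) and the lectin Mbl2 (-0.65 ± 0.37, adjusted p = 0.366, limma) followed. Fgb and Mbl2 are liver genes, as are most of the list.

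Of 26 genes that carry the cytokine signal to acute phase genes, 1 passed the threshold over all days, upward, and 0 downward, where 1.96% of all genes were called. It was Nfkbia, the inhibitor of NF-kappa-B that NF-kappa-B itself induces, at 0.74 ± 0.20 (adjusted p = 0.0494, limma), with day values of 0.91, 0.91 and 0.39. With the slide, the scan day or the array position as a fixed block no gene of the array was called over all days, so this call is lost there. It was lost too with the scanner's processed signals (0.38, limma adjusted p 0.43), no filter (0.0757) or the mean over probes (0.0585). Without the 3 liver-rich arrays it was also lost (0.124). The call held under the other settings in which that of Tnni3 held. It held in 8 of 34 fits without 1 array, with an adjusted p of 0.0852 in limma without replicate 4 of control day 28. Chosen after their values were seen, Socs1 stood at -0.58 ± 0.16 (adjusted p = 0.0527, limma) and Stat3 at 0.34 ± 0.12 (adjusted p = 0.102, limma), neither past the threshold. Of 10 receptors and carriers of the members' ligands in the fit, 0 were called on any day (0% of all genes) or over all days (1.96% of all genes). Those of smallest unadjusted p over all days were the heme-degrading enzyme Hmox1 (-0.19 ± 0.076), the Toll-like receptor 4 partner Ly96 (0.23 ± 0.10), Tlr2 (-0.23 ± 0.11) and the scavenger receptor Cd36 (0.24 ± 0.15), with adjusted p of 0.169 to 0.399 in limma.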

How the data were processed

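Heart RNA (Cy5) and Universal Mouse Reference RNA (Cy3) were hybridised to 2-colour Agilent arrays. Per the file headers, the deposited intensity values came from Agilent Feature Extraction 10.1.1.1, with probes designed on mouse build mm8. The authors' deposited log2 ratio table has column medians of -0.055 to -0.034 and correlates at 0.995 to 0.998 with loess log2 ratios made without background correction. Its exact normalization is not given in the sources used here, and it served as an alternative.

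Median intensities were corrected with normexp (offset 50) and loess-normalized within arrays in limma 3.58.1 (R 4.3.3), with control spots at weight 0. A probe passed with a heart signal well above background in a share of 0.5 or more of any group's arrays and no more than 3 missing values (25246 of 41174 probes). The probe of highest mean heart signal stood for its gene. The 6 group means were fitted over 34 arrays, with 28 residual degrees of freedom, and p-values were adjusted by Benjamini-Hochberg. limma was tested on simulated data. Exact permutation tests, planned for members below the filter, were run on all members as an alternative since all passed. Marker scores were means of log2 ratios centred per gene, and correlations took p from 100000 permutations (Python 3.11.15).

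The members and lists were chosen with earlier results of these data known. All 9 members are named; of other lists, genes called in an exposure comparison, otherwise up to 4 of smallest unadjusted p over all days, and for likeness the 5 named genes of highest r. Alternatives changed the background correction, normalization, filter, probe rule, blocks (slide, scan day, array position) and arrays. Exposure and position were unbalanced: 10 of 10 arrays at position 4 were exposed, and 12 controls lay at position 1. Arrays came from 14 slides and 7 scan days. Their number limits the precision. Promoter windows and gene positions come from RefSeq, GRCm38.p6, whose build differs from that of the array design. Each array is 1 mouse.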

Additional observations from a re-analysis of the deposited data

Results flagged for a closer look

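Of 54 groups of 5 or 6 mice tested, 6 held a mouse far from the others of its group by Dixon's test, a rule that marks about 1 in 20 groups by chance. The Saa2 level was far above the others in replicate 3 of control day 1 (3.07, next 0.55), replicate 2 of carbon black day 1 (2.19, next 0.65) and replicate 5 of control day 3 (3.21, next 0.62). The last of these mice also stood apart for Serpina3n (0.99, next 0.26). Hpx was far above the others in replicate 2 of carbon black day 1 (0.67, next 0.0069). Hp was far below the others in replicate 2 of control day 1 (-1.32, next 2.54), an array with an adipocyte score of -3.15.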

How the results depend on the processing

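The count of members called was 0 in all 172 counts over the other settings and comparisons and in all 442 counts over comparisons without 1 of the 34 arrays. In the main fit 0% of all genes were called in every comparison but that over all days (1.96%). Counts of 0 therefore say little about the members. The counts of all genes over all days under other settings are given below. Of 563 values of members under other settings, 514 kept their direction and side of the threshold and 47 changed sign. The other 2 passed 0.05 by the exact permutation test without adjustment (Lcn2 and Hpx on day 1, p = 0.0238 and 0.00433). That test was run on the members only, so no share of all genes stands beside this count. The Lcn2 value is only a description, because the gene passed the filter only through carbon black day 1. In limma 7.2% of all genes had an unadjusted p under 0.05 on day 1. All values that changed sign belonged to differences not called. The cause was not tested. In the following, values are log2 differences, exposed minus control.

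With median centring, the median of all genes moved to 0.21 on day 1, 0.29 on day 3 and 0.19 over all days. The members that changed sign there lay below that median, except Saa3 over all days. The part of this common shift in their change of sign was not tested. Saa1 was at 0.0070 and Lbp at 0.059 on day 1, and Saa3 at 0.060, Lcn2 at 0.024 and Lbp at 0.11 on day 3. Over all days Saa3 was at 0.22 and Lbp at 0.014. Steap4 was at -0.022 on day 28 with the same centring. Without background correction, Hp was at -0.052 and Steap4 at 0.18 on day 1, Serpina3n at 0.0033 on day 28, and Serpina3n at 0.053 and Steap4 at 0.17 over all days. With the scanner's processed signals, Steap4 was at 0.18 on day 1 and 0.17 over all days, and Saa3 at 0.013 over all days. With the authors' deposited values, Hp was at -0.091 and Steap4 at 0.16 on day 1, Lcn2 at -0.0092 on day 28, and Serpina3n at 0.038 and Steap4 at 0.15 over all days. With the mean over probes, Steap4 was at -0.017 on day 3 and -0.019 on day 28.

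With the slide as a fixed block, Saa2 was at 0.077 and Steap4 at 0.026 on day 1, Serpina3n at 0.051 on day 3, and Saa2 at 0.27 and Hpx at 0.43 on day 28. Over all days Saa2 was at 0.028, Serpina3n at 0.085 and Steap4 at 0.18 there. With the scan day as a fixed block, Lcn2 was at 0.015 and Steap4 at -0.021 on day 3. With the array position as a fixed block, Serpina3n was at -0.032 and Hp at -0.31 on day 1, Hp at -0.16 and Steap4 at -0.14 on day 3, and Steap4 at -0.11 on day 28. Over all days Saa3 was at 0.038 and Hp at -0.017 there. Without the 3 control day 3 arrays rich in liver transcripts, Serpina3n was at 0.050 and Hpx at 0.55 on day 3, and Serpina3n at 0.0093 and Steap4 at 0.11 over all days. Without the 5 arrays low in atrial transcripts, Hp was at -0.20 on day 1 and -0.037 on day 28, and Steap4 at 0.066 over all days.

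Without 1 replicate at a time, 24 of 1394 values changed sign, and the results concerned had these ranges. Hp ranged from -0.73 to 0.56 on day 1 and from -0.037 to 1.71 on day 28 and from -0.34 to 0.85 on day 3. Lcn2 ranged from -0.016 to 0.20 on day 28. Saa1 ranged from -0.44 to 0.079 on day 1. Saa2 ranged from -0.58 to 0.25 on day 1. Serpina3n ranged from -0.072 to 0.018 over all days and from -0.19 to 0.074 on day 3. Steap4 ranged from -0.13 to 0.026 over all days and from -0.044 to 0.25 on day 28 and from -0.24 to 0.21 on day 3. Over all genes, the count called over all days was 387, and 1487 without background correction, 1373 with median centring, 1512 with the authors' values, 148 with no filter, 132 with the mean over probes and 1003 without the 5 arrays. It was 0 with the processed signals or with slide, scan day or position as a fixed block, and 1 without the 3 arrays. Without 1 array at a time it ran from 0 to 946 and moved by over 1.5 times in 28 of 34 fits. It was 0 without replicate 3 or 5 of carbon black day 3, replicate 3 of carbon black day 28 or replicate 4 of control day 28, and highest without replicate 3 of control day 3. With scan day as a block, 1 gene, no member, was called on day 1. No paired analysis was possible because the labels give the groups no shared replicate numbers. Spots near background (Lcn2, Saa2, Serpina3n and Hpx on many arrays) limit what small differences mean.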
